A study of Arabidopsis thaliana with 12 samples.

Results

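Prefoldin is a cytosolic chaperone made of 6 different subunits, encoded in Arabidopsis thaliana by PFD1 to PFD6. The line labelled 6x_pfd was compared with wild type (WT) at 7 days, across all 19397 genes of the authors' deposited table for this pair, of 19710 genes that the series' tables hold in either comparison. Each of the 2 groups had 3 samples of whole seedlings of the Col-0 ecotype, grown in vitro and labelled LL, an abbreviation commonly used for continuous light. The series' design text calls the samples biological, without saying whether they were separate sowings, so p-values measure the spread between these samples only. The labels give the mutant by its name and list neither its alleles nor how it was made. Transcript levels of the prefoldin genes are given below, and they do not show by themselves which genes are disrupted. The pfd4 seedlings and their own WT, 3 samples each at 14 days under the label LD at ZT1 and with mock in their titles, serve below to show where 6x_pfd differs.

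As background, prefoldin binds newly made actin and tubulin and passes them to the ring-shaped chaperonin CCT, which folds them. Tubulin then builds microtubules, which guide cellulose deposition and cell growth in plants and form the mitotic spindle. In Arabidopsis the complex also has a nuclear role, in which it moves with DELLA proteins, the growth repressors that gibberellin removes, and it helps the assembly of the LSM splicing complex.

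Libraries were polyadenylated RNA made with a stranded kit, per the labels' protocols. The authors' deposited table gives for each gene a mean normalized count over the 6 libraries, a log2 fold change of 6x_pfd over WT, its standard error (SE) and an adjusted p-value. A gene is called here where that adjusted p was below 0.05, and ± marks the SE on the log2 scale. The tables used here give no value for a single library, and the spread between the 3 samples of a group enters only through the SE. A mean for each group was derived from the mean normalized count and the fold change, and is named as derived wherever it is given. Of 19380 genes with a p-value, 6519 were called, which is 33.6%. Of these, 3270 (16.9% of the tested genes) were higher and 3249 (16.8%) were lower in 6x_pfd. Under the authors' scaling the total of 6x_pfd stood at -0.08 relative to WT on the log2 scale. With group totals set equal instead, 4652 were higher and 2388 lower, so the higher share of the calls moved from 50.2% to 66.1%. Centred on the median of genes of high mean count, 3139 were higher and 3378 lower, a higher share of 48.2%. The totals include abundant genes that fell, so equal totals raise all other genes. Among them are 14 photosystem II antenna genes (13 lower, 1 higher), whose derived means summed to 1.74e+06 in WT and 715268 in 6x_pfd. Most calls were small: 3809 of the 6519 were under 1.5-fold. A change of at least 2-fold was called for 734 higher genes (3.79% of those tested) and 452 lower genes (2.33%). At 8-fold or more there were 159 higher and 8 lower genes, and 48 of the 159 had a derived WT mean under 10 normalized counts.

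**Figure D1:**
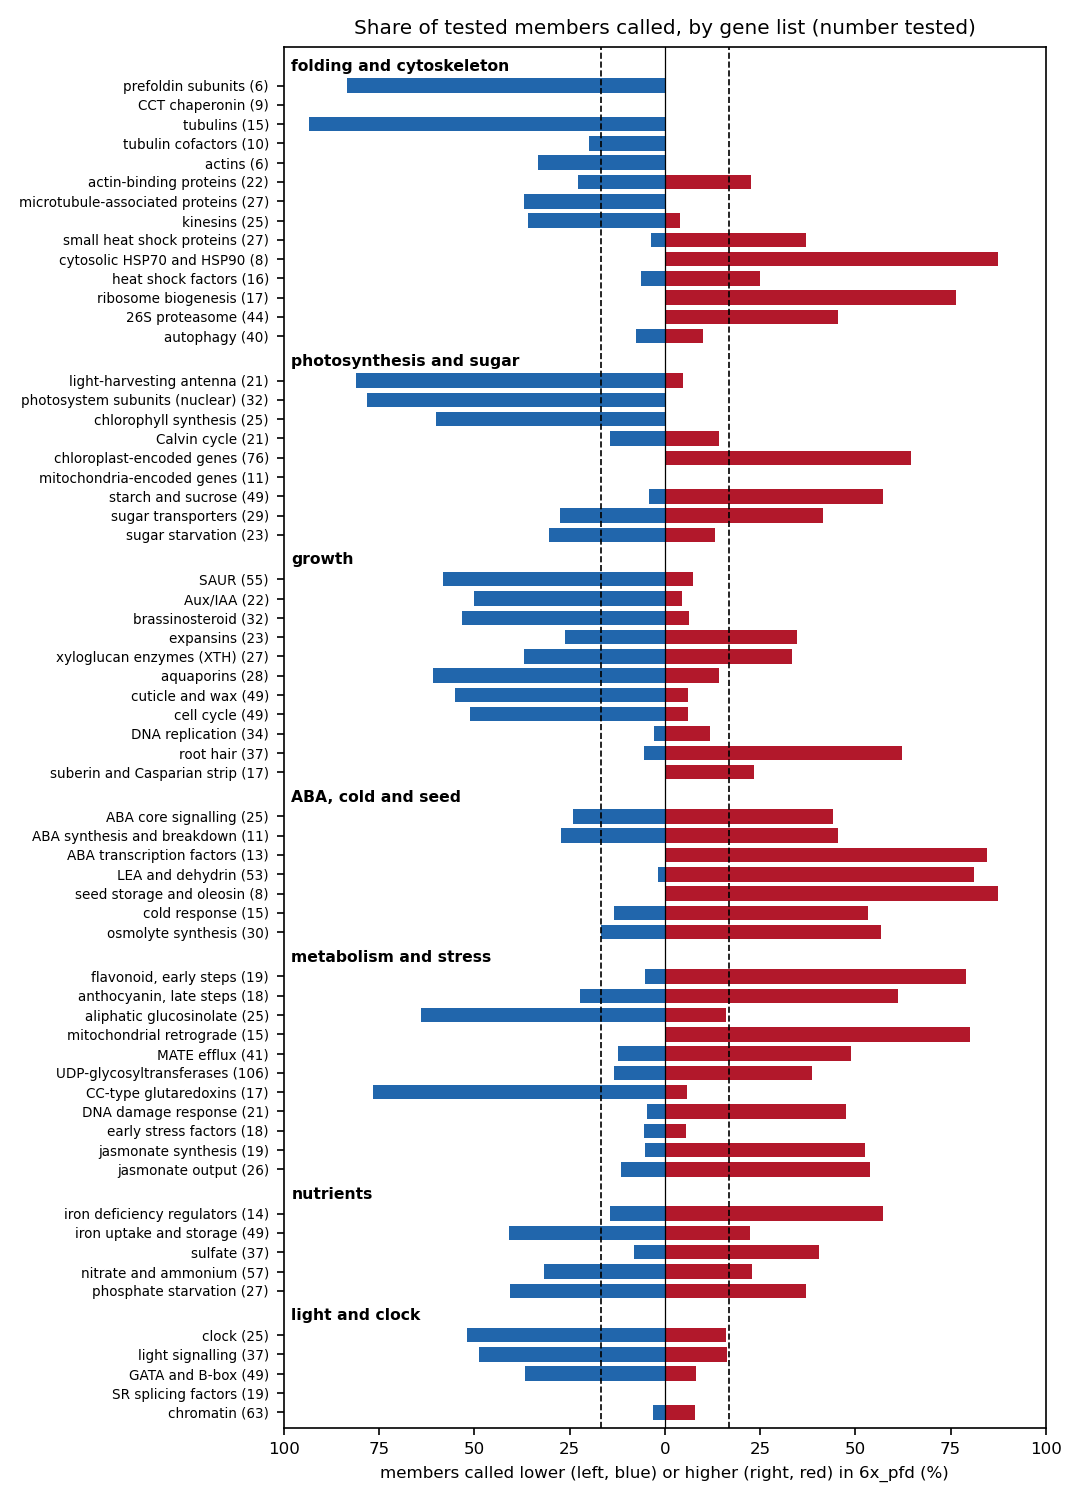
Share of the tested members of each gene list that was called lower (blue, to the left) or higher (red, to the right) in 6x_pfd, in percent, with the number tested in brackets. Dashed lines mark the shares over all tested genes, 16.8% lower and 16.9% higher; antenna and SAUR lists lie to the left, and LEA, seed and flavonoid lists to the right.

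Transcripts of 5 of the 6 prefoldin genes fell in 6x_pfd. PFD1 had the lowest value, with a derived mean of 508 normalized counts in WT and 3.89 in 6x_pfd, a log2 fold change of -7.03 ± 0.42 in the authors' deposited table. PFD2, PFD3 and PFD4 had 91.4, 113 and 31.1 derived counts against 658, 1166 and 427 in WT (-2.85 ± 0.13, -3.36 ± 0.12 and -3.78 ± 0.19). PFD5 had 259 against 573 (-1.15 ± 0.13). PFD6 was not called, with -0.16 ± 0.10 and an adjusted p of 0.217 in the authors' deposited table. Whether any of these transcripts makes a working protein was not measured. Among the 10 genes on each side of every prefoldin gene, 79 were tested, and 10 were higher and 11 lower, a share of 26.6% against 33.6% for all genes. None of the 16 tested neighbours of PFD3 or of the 3 tested neighbours of PFD1 was called. PFD2 had 2 higher and 5 lower neighbours of 13, the strongest being AT3G22560, encoding an acetyltransferase, at 2.27 ± 0.41 in the authors' deposited table.

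Many of the strongest increases belonged to the response to abscisic acid (ABA), the hormone of drought and seed dormancy. ABA binds receptors of the PYR and PYL family, which then block clade A protein phosphatases (PP2Cs). With the phosphatases blocked, SnRK2 kinases activate bZIP factors (ABFs and ABI5) that bind the ABA-responsive element (ABRE), whose core is ACGTG. Among the targets are the late embryogenesis abundant (LEA) proteins and dehydrins, which protect membranes and proteins in drying cells. The upstream sequences of 4 such genes are shown because they carry the element in front of some of the strongest increases. Each is the 300 bases before the annotated gene start in RefSeq's TAIR10.1, on the gene's own strand and written 5′ to 3′, with each ACGTG or its reverse complement in capitals. RAB18 (AT5G66400) encodes a dehydrin and its window is chr5:26519448-26519747, minus strand. RD29B (AT5G52300) encodes a desiccation protein and has chr5:21236721-21237020, plus strand. KIN1 (AT5G15960), encoding a small cold- and ABA-induced protein, has chr5:5209417-5209716, plus strand. LEA7 (AT1G52690) has chr1:19619424-19619723, plus strand.
RAB18: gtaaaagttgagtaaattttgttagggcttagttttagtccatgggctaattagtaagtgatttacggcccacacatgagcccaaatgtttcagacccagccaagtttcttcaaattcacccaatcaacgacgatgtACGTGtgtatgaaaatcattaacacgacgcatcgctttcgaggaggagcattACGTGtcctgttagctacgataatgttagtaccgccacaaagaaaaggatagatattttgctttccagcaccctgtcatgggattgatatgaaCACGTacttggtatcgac
RD29B: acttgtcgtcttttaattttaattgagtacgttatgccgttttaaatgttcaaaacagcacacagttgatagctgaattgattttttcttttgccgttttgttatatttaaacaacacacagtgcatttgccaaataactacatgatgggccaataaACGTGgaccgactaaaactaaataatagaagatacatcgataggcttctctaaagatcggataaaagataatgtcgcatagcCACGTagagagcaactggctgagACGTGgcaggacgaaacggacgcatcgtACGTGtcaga
KIN1: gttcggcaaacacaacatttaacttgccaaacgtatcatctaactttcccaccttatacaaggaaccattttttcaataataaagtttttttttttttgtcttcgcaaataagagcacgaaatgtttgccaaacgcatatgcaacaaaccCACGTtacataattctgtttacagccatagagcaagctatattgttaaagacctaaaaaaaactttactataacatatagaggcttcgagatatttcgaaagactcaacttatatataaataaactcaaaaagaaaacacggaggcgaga
LEA7: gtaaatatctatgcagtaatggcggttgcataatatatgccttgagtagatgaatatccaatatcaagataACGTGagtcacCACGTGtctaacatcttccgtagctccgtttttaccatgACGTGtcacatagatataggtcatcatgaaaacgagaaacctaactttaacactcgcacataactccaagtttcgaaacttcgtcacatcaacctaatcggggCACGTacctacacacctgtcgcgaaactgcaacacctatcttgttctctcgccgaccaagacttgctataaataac
These windows hold 3, 4, 1 and 5 matches in that order, counted on both strands with overlaps. Over all 19292 windows of the tested genes, 26.8% hold at least 1 match.

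All 4 of these genes rose steeply. RAB18 went from a derived mean of 1050.2 normalized counts in WT to 22409 in 6x_pfd, at 4.42 ± 0.37 on the log2 scale of the authors' deposited table with an adjusted p of 2.02e-31. RD29B went from 696 to 14764 derived counts (4.41 ± 0.42), LEA7 from 222 to 10256 (5.53 ± 0.50) and KIN1 from 497 to 3915 (2.98 ± 0.12) on the same scales. Reads of KIN1 may be shared with its close copy KIN2, which stands next to it. KIN1 had the smallest p of all genes that rose (adjusted p = 2.29e-135). Of 53 tested LEA and dehydrin genes, 43 rose and 1 fell, with a median log2 fold change of 2.60, against 0.00 over all tested genes. At least 2-fold increases numbered 35. Members with high values included AT3G02480 (3.53 ± 0.15), LEA4-5 (4.20 ± 0.20) and the cold-regulated COR15A (4.52 ± 0.49) in the authors' deposited table, while COR47, a dehydrin already abundant in WT, rose by 0.43 ± 0.09. In 4 LEA genes the derived WT mean was under 10, where a fold change rests on few reads.

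The steps of the ABA pathway moved in different directions. None of the 10 receptor genes rose and 6 fell, among them PYL4 (-1.24 ± 0.12), PYL5 (-1.27 ± 0.49), PYR1 (-0.80 ± 0.10) and PYL8 (-0.57 ± 0.15) in the authors' deposited table. All 9 phosphatase genes rose. HAI1, HAI2 and HAI3, named for their strong induction by ABA, were at 3.38 ± 0.21, 3.99 ± 0.55 and 4.39 ± 0.30, and AHG1, a phosphatase of seeds, was at 3.22 ± 0.39. ABI1 and ABI2 rose less, by 1.09 ± 0.10 and 1.32 ± 0.11 in the authors' deposited table. Of 6 SnRK2 kinase genes, 2 rose, with OST1, the kinase that closes stomata, at 0.41 ± 0.08. For synthesis, NCED3, the drought-induced cleavage enzyme that limits the rate, went from 342 to 1467 derived counts (2.10 ± 0.16), and its relative NCED4 fell (-0.72 ± 0.17). CYP707A1 and CYP707A2, which break ABA down, rose by 1.06 ± 0.14 and 1.17 ± 0.18 in the authors' deposited table. Hormone levels were not measured.

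**Figure D2:**
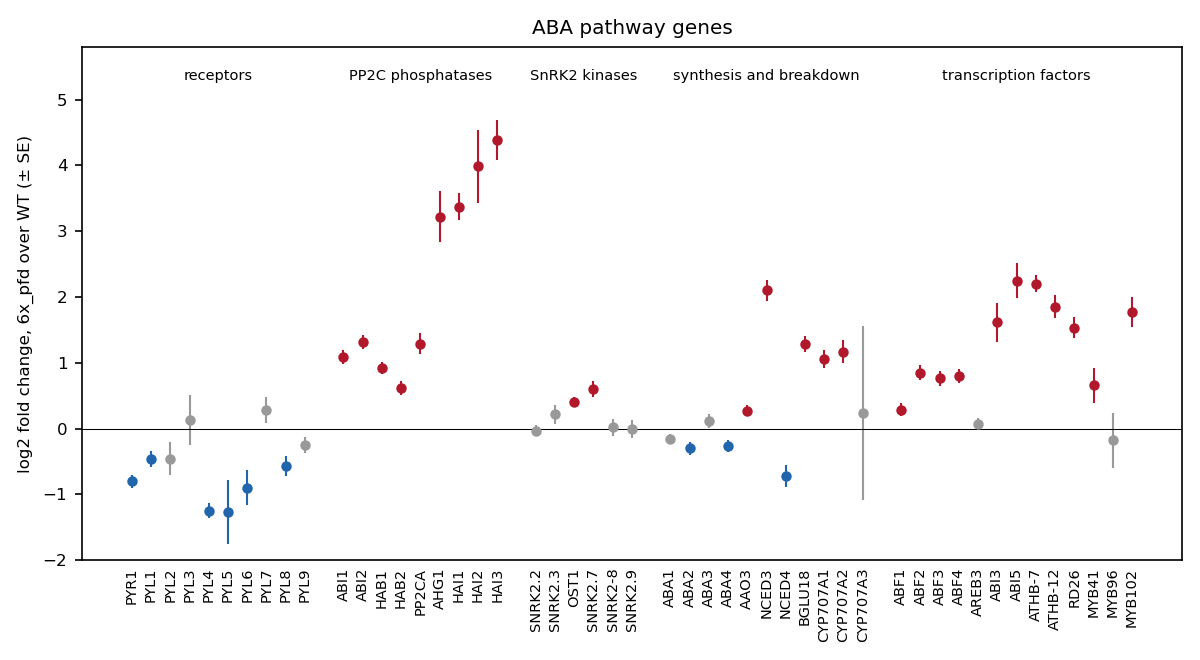
Log2 fold change of 6x_pfd over WT with its standard error (vertical lines, 3 libraries per group) for ABA genes, by role; red and blue points passed an adjusted p of 0.05, grey ones did not. The 9 phosphatase points all lie above 0, from 0.61 to 4.39, and the lowest receptor point is at -1.27.

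Of 13 transcription factor genes of the ABA response, 11 rose and none fell, with a median of 0.85. The bZIP genes ABI5, ABF2, ABF4 and ABF3 were at 2.25 ± 0.26, 0.85 ± 0.11, 0.80 ± 0.11 and 0.76 ± 0.11 in the authors' deposited table, and ABI3, the seed maturation factor, was at 1.61 ± 0.29. Homeobox genes ATHB-7 (2.20 ± 0.13) and ATHB-12 (1.85 ± 0.17) and the NAC gene RD26 (1.53 ± 0.16) also rose. AREB3 (0.07 ± 0.10) and MYB96 (-0.18 ± 0.41) were not called. Osmolyte genes followed with 17 of 30 higher and 5 lower: P5CS1, the first enzyme of stress-induced proline synthesis, went from 5478 to 29522 derived counts (2.43 ± 0.14), and the galactinol synthase gene GolS2 was at 2.95 ± 0.53 in the authors' deposited table. The 5 lower genes of that list encode enzymes of trehalose metabolism, such as TPS11 (-1.32 ± 0.49). Of 15 tested cold response genes, 8 rose and 2 fell, with ADH1, alcohol dehydrogenase, at 2.47 ± 0.14 and the desaturase gene FAD3 at -0.41 ± 0.08.

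Genes of seed filling were among those that rose. Of 8 tested storage protein and oleosin genes, 7 rose, with a median of 3.14. Derived means of CRA1, a cruciferin, were 573 in WT and 4184 in 6x_pfd (2.87 ± 0.51), and those of OLEO1, which coats oil bodies, were 58.8 and 1195 (4.34 ± 0.75) in the authors' deposited table. SESA2, a storage albumin, had a derived WT mean of 0.684, so its value of 6.86 ± 1.17 rests on almost no WT reads. Seed aquaporins TIP3;1 (3.19 ± 0.46) and BETA-TIP (3.96 ± 0.46) rose as well. The list has 21 genes in the reference, and the authors' filter on low expression kept 8, so members absent in both groups do not enter. Genes almost silent in WT, such as SESA2, could pass that filter through 6x_pfd alone. The counts of tested seed genes that rose are therefore partly set by the filter. Of 17 listed markers of embryo and seed, 8 were tested and all 8 rose. Their derived means summed to 1036 in WT and 10168 in 6x_pfd. The LEA list holds 2 of these markers (EM1 and EM6) and the storage list 5. The part of embryo or seed cells in these values was not tested. In whole seedlings, more or fewer cells of a type and more or less RNA per cell cannot be told apart, here and in the lists below.

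Genes for the light-capturing part of photosynthesis fell, whereas most of those for carbon fixation were not called. Light-harvesting proteins (LHCA around photosystem I, LHCB around photosystem II) bind chlorophyll and feed energy to the reaction centres. Of 21 tested antenna genes, 17 fell and 1 rose, with a median of -1.28, and 15 fell at least 2-fold. LHCB1.3, the called gene with the highest mean count of all, fell from 506644 to 247684 derived counts, at -1.03 ± 0.10 in the authors' deposited table. LHCB1.4 (-2.01 ± 0.11) and LHCB2.2 (-2.01 ± 0.19) fell about 4-fold. The photosystem I antenna genes LHCA4 and LHCA1 were at -1.68 ± 0.13 and -1.60 ± 0.13. LHCB4.3, a minor antenna gene with a derived WT mean of 450.3, was the exception and rose (0.95 ± 0.18). LHCB1 genes are close copies, so reads may be split among them in a way the sources used here do not give.

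Photosystem subunits encoded in the nucleus followed: 25 of 32 fell and none rose, with a median of -0.68. All 13 photosystem I subunit genes fell, from -1.59 to -0.52, while 9 of 11 photosystem II genes fell, down to -1.06. PSAF, the plastocyanin-docking subunit, went from 73125 to 24282 derived counts (-1.59 ± 0.07, adjusted p = 1.43e-118) and PSAD-2, on the ferredoxin side, was at -1.51 ± 0.08 in the authors' deposited table. The upstream window of PSAF (AT1G31330; chr1:11216142-11216441, minus strand) is shown with its single GATAAG, the I-box of light-regulated genes, in capitals, because PSAF had the smallest p of the photosystem genes.
PSAF: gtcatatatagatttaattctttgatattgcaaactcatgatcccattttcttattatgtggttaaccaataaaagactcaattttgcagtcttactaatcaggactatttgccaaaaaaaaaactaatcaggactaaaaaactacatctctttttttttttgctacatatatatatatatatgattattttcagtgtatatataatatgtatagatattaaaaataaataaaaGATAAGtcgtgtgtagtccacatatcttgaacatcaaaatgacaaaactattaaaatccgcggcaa
GATAAG was in 14.7% of all windows, in 17.0% of those of lower genes, in 13.1% of those of higher genes and in 28.1% of those of nuclear photosystem subunits (9 of 32), counted on both strands. Of 25 tested chlorophyll synthesis genes, 15 fell and none rose under the authors' scaling, and 2 rose with equal group totals. HEMA1, which starts the pathway, was at -0.96 ± 0.16, and GLK2, a transcription factor that drives it, at -0.83 ± 0.11 in the authors' deposited table.

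Carbon fixation genes differed from these in that their calls stayed near the shares over all tested genes. Of 21 Calvin cycle genes, 3 rose and 3 fell, against 16.9% higher and 16.8% lower over all tested genes. Their median was 0.09, and with equal group totals the counts were 5 and 2. The main Rubisco small subunit gene RBCS1A had derived means of 316435 in WT and 352941 in 6x_pfd (0.16 ± 0.16, with an adjusted p of 0.501) in the authors' deposited table, and was not called. Of the 5 tested mesophyll markers, the 3 antenna genes among them fell, and RBCS1A and the carbonic anhydrase gene CA1 (0.30 ± 0.17) were not called. Their derived means summed to 727069 in WT and 581870 in 6x_pfd. The photorespiratory gene GLDP1, a glycine decarboxylase subunit, rose from 72963 to 121657 derived counts (0.74 ± 0.11) and had the highest mean count of all genes that rose. ELIP1 and ELIP2, stress relatives of the antenna proteins, rose by 2.66 ± 0.17 and 3.06 ± 0.16 in the authors' deposited table.

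Genes of the chloroplast genome moved the other way. Of 76 tested, 49 rose and none fell. The median was 1.27, and 42 rose at least 2-fold. ATCG01130 was at 2.48 ± 0.27, from 174 to 968 derived counts, and ATCG00490 at 0.81 ± 0.23 in the authors' deposited table; the reference used here gives no names for these identifiers. The library kit selects polyadenylated RNA, and chloroplast transcripts mostly lack a stable tail, so these counts hold only the part of the chloroplast RNA that was captured. None of 11 mitochondria-encoded genes was called by the DESeq2 test, and none had an unadjusted p below 0.05. Most of them had low mean counts and wide SEs, such as ATMG00080 (0.96 ± 0.49) and ATMG01380 (-1.42 ± 0.84). For these, a missing call does not show that the level was unchanged. ATMG01390 and ATMG00020, with mean counts of 3351 and 6942, were at 0.08 ± 0.12 and 0.03 ± 0.13.

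**Figure D3:**
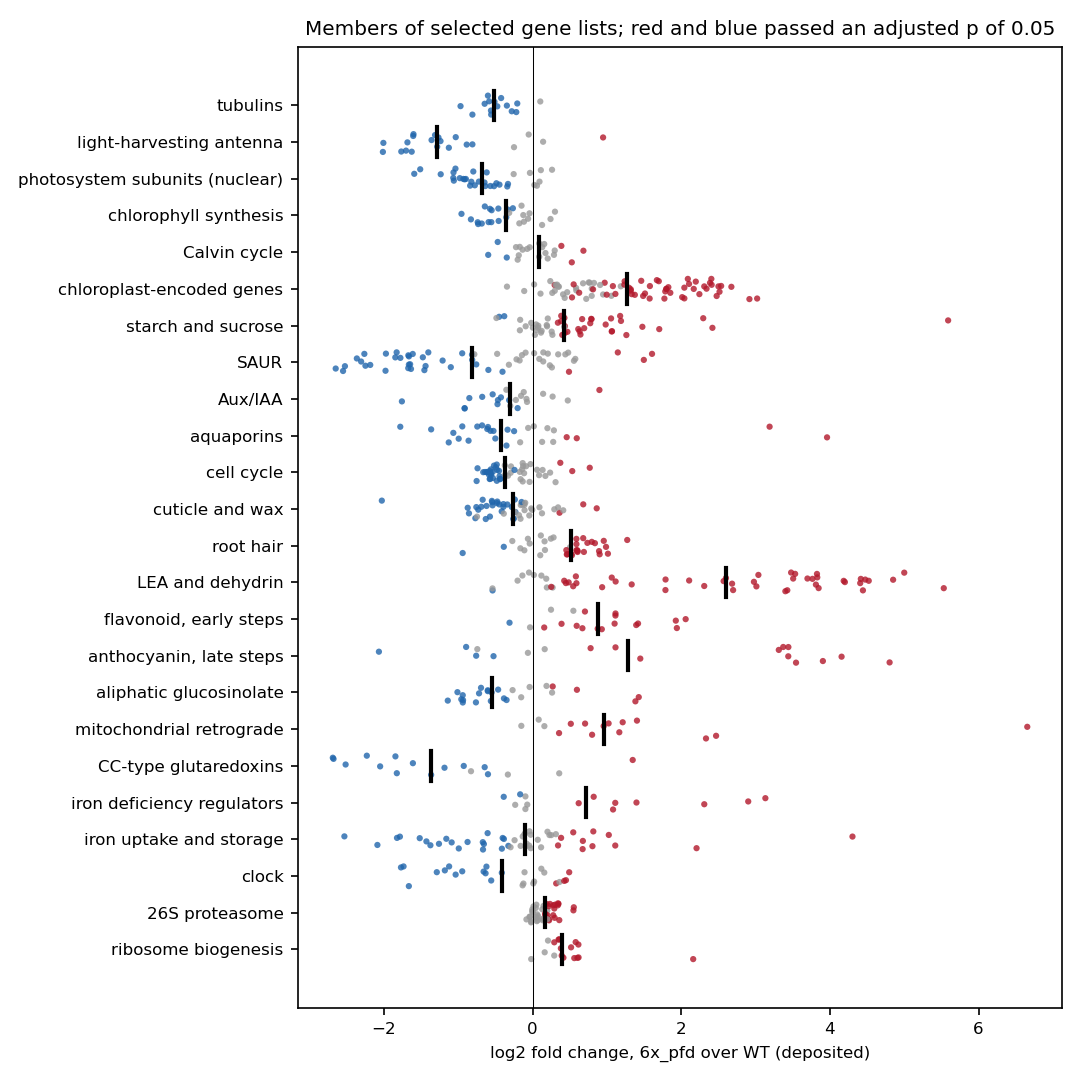
Log2 fold change of 6x_pfd over WT for each tested member (points) of selected lists; red points were called higher, blue lower, grey not called, and black bars mark the median of each list. The antenna median lies at -1.28 and the LEA median at 2.60, and the SAUR and LEA lists spread over several units.

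Starch and sucrose genes were mostly higher. Of 49 tested, 28 rose and 2 fell, with a median of 0.43. Both starch-building and starch-degrading steps were among them: APL3, a large subunit of ADP-glucose pyrophosphorylase, rose by 2.30 ± 0.18, the branching enzyme gene SBE2.1 by 1.07 ± 0.08, the debranching enzyme gene ISA3 by 1.18 ± 0.12 and the glucan dikinase gene GWD3 by 0.98 ± 0.10 in the authors' deposited table. The beta-amylase gene BAM1 (AT3G23920) was at 1.26 ± 0.08. The 2 that fell were APL1, another large subunit gene (-0.38 ± 0.14), and the glycosyl hydrolase gene ATBFRUCT1 (-0.45 ± 0.08). Among the 49 is also a receptor kinase gene, AT4G20270, matched by its symbol BAM3 and not called (0.27 ± 0.12). Sucrose synthase gene SUS3 went from 785 to 4201 derived counts (2.42 ± 0.16). CWINV5, a cell wall invertase gene with a derived WT mean of 8.63, had the largest value of the list, 5.59 ± 0.35. Among 29 sugar transporter genes, 12 rose and 8 fell. The exporters SWEET15 (3.68 ± 0.47) and SWEET4 (3.78 ± 0.28) and the plastid translocator GPT2 (2.25 ± 0.23) rose, and the hexose importer STP1 (-1.32 ± 0.21) and the phloem loader SUC2 (-0.84 ± 0.09) fell in the authors' deposited table. Of 23 sugar starvation genes, 7 fell and 3 rose, with SEN1 (AT4G35770) at -1.89 ± 0.56.

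Genes that promote cell expansion fell in several families. SAUR genes encode short proteins that activate plasma membrane proton pumps and promote cell expansion under auxin. Of 55 tested, 32 fell and 4 rose, with a median of -0.81, and 26 fell at least 2-fold. SAUR19 had derived means of 67.0 in WT and 10.7 in 6x_pfd (-2.65 ± 0.38, with an adjusted p of 8.30e-11) in the authors' deposited table, and its neighbours SAUR22 (-2.25 ± 0.34), SAUR23 (-2.52 ± 0.39) and SAUR24 (-1.67 ± 0.25) on chromosome 5 were close to it. SAUR63 was at -1.48 ± 0.22. These genes stand in tandem arrays of near-identical copies, so the assignment of reads among neighbours is uncertain. The 4 that rose were AT3G12955 (1.61 ± 0.26), AT4G12410, AT5G20820 (1.15 ± 0.28) and AT5G53590 (0.49 ± 0.16). Aux/IAA repressor genes, which auxin induces, fell in 11 of 22 cases and rose in 1, with IAA29 lowest (-1.76 ± 0.29).

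Brassinosteroid genes fell in 17 of 32 cases and rose in 2. PRE1, a small helix-loop-helix protein that promotes elongation, went from 148 to 28.4 derived counts (-2.38 ± 0.30), and BEE2, induced by the hormone, was at -1.12 ± 0.12 in the authors' deposited table. Wall-loosening families were split. Of 23 expansin genes, 6 fell and 8 rose: EXPA8 (-1.85 ± 0.14) and EXPA1 (-1.45 ± 0.10) fell, whereas EXPA16 (2.52 ± 0.19) and the root hair expansins EXPA7 (0.60 ± 0.16) and EXPA18 (0.47 ± 0.16) rose. Xyloglucan-remodelling XTH genes were lower in 10 and higher in 9 of 27 cases, with XTH6 at -2.17 ± 0.11 (its adjusted p was 4.32e-87) and XTH12 at 1.28 ± 0.15 in the authors' deposited table. Of 13 plasma membrane aquaporin genes, which let water into cells, 11 fell and 1 rose. PIP1;5 was at -1.13 ± 0.08 and the abundant PIP2;1 at -0.52 ± 0.07, and TIP2;1, a vacuolar channel, fell from 33759.5 to 9842 derived counts (-1.78 ± 0.11). Cuticle and wax genes fell in 27 of 49 cases and rose in 3, most by less than 2-fold, with the elongase gene KCS12 lowest (-2.03 ± 0.28).

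Cell cycle genes fell by small amounts. Of 49 tested, 25 fell and 3 rose, with a median of -0.37 and no change of 2-fold. KNOLLE, the syntaxin of the cell plate, was at -0.66 ± 0.09 and the mitotic kinase gene CDKB2;1 at -0.64 ± 0.11 in the authors' deposited table, and 9 of 15 A- and B-type cyclin genes fell while 1 rose. Of 34 DNA replication genes, 1 fell and 4 rose, with MCM2, part of the replicative helicase, not called (-0.03 ± 0.12). Markers of the shoot and root meristems were called lower in 1 of 4 (CLV1, -0.40 ± 0.10) and 1 of 3 cases (SHR, -0.32 ± 0.11).

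Nearly all genes for tubulin, a substrate of prefoldin, fell by small amounts. Of 15 tubulin genes, 14 fell, all 6 for alpha and 8 of 9 for beta tubulin, with a median of -0.51 and none of them 2-fold. TUB8 had the lowest value (-0.97 ± 0.08), followed by TUB5 (-0.81 ± 0.07), and the highly expressed TUA4 fell from 15979.5 to 12582 derived counts (-0.34 ± 0.06) in the authors' deposited table. TUB1 was not called (0.10 ± 0.10, adjusted p = 0.484). With equal group totals 12 of the 15 were lower and none was higher. Close copies such as TUA3 with TUA5 and TUB2 with TUB3 may share reads. Of 6 actin genes 2 fell, and of 9 CCT subunit genes none was called by the DESeq2 test, with 1 at an unadjusted p below 0.05. The CCT median was 0.13, and with equal group totals 8 of the 9 were higher.

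Microtubule partners fell in part. Of 27 genes for microtubule-associated proteins, 10 fell and none rose, among them MAP65-3 (-0.54 ± 0.11) and EB1C (-0.56 ± 0.14), which act in dividing cells, and MAP65-1 (-0.48 ± 0.08) in the authors' deposited table. Of 25 kinesin genes, 9 fell, such as ATK5 (-0.56 ± 0.11), a spindle motor, and POK2 (-0.44 ± 0.11), a motor that positions the division plane. MRH2, a kinesin of root hairs, was the 1 that rose (0.53 ± 0.18). The tubulin folding cofactors and gamma-tubulin complex had 2 lower genes of 10, near the 16.8% lower over all tested genes. Actin-binding proteins had 5 higher and 5 lower of 22, and 11 higher with equal group totals.

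Genes of protein folding and turnover differed by family. Of 8 genes for cytosolic HSP70 and HSP90 chaperones, 7 rose, with a median of 0.40. The stress-induced HSP70 (AT3G12580) went from 1866 to 5381 derived counts (1.53 ± 0.15), and HSC70-1, the constitutive member with the highest count, was not called (0.02 ± 0.07) in the authors' deposited table. Small heat shock proteins had 10 higher and 1 lower of 27, with ATHSP22.0, an endoplasmic reticulum member, at 5.34 ± 0.57 with a derived WT mean under 10. Heat shock factor genes rose in 4 of 16 cases, not far from the 16.9% higher over all tested genes. The 4 were led by HSFA6A (4.49 ± 0.65) and HSFA6B (1.82 ± 0.21), and HSFA7A fell (-1.17 ± 0.25). Ribosome assembly genes rose in 13 of 17 cases with a median of 0.39, and NUC-L2, a nucleolin that is usually little expressed beside NUC-L1 (0.52 ± 0.10), had the largest value (2.16 ± 0.19). For the 26S proteasome 20 of 44 genes rose and none fell, around a median of 0.16, with no change of 2-fold. With equal group totals 27 proteasome genes were higher. Autophagy genes were higher in 4 and lower in 3 of 40 cases (8 and 2 with equal group totals). None of 19 SR splicing factor genes was called by the DESeq2 test, with 1 at an unadjusted p below 0.05.

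Flavonoid genes rose from the first to the last steps of the route. Early steps, which lead from phenylalanine to flavonols, rose in 15 of 19 cases and fell in 1. CHS, the entry enzyme chalcone synthase, went from 4634 to 19317 derived counts (2.06 ± 0.14), F3H was at 1.94 ± 0.13 and the flavonol synthase gene FLS1 at 1.39 ± 0.12 in the authors' deposited table. PAL3 was the 1 that fell (-0.31 ± 0.10). Late anthocyanin steps rose further: all 7 enzyme genes of the list rose, with a median of 3.44. DFR was at 3.44 ± 0.42, LDOX at 3.44 ± 0.47 and the glycosyltransferase gene UF3GT at 4.16 ± 0.52. Their activators PAP1 (AT1G56650, 3.91 ± 0.33), PAP2 (AT1G66390, 4.80 ± 0.49) and TT8 (3.37 ± 0.26) rose, and the repressor MYBL2 fell (-2.07 ± 0.22) in the authors' deposited table. LBD37 (-0.76 ± 0.17) and LBD39 (-0.89 ± 0.17), which repress the pathway when nitrogen is ample, also fell. Other listed regulators differed, with the WD40-repeat gene TTG1 lower (-0.52 ± 0.08), GL3 higher (0.78 ± 0.22) and EGL3 not called (0.16 ± 0.18).

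Aliphatic glucosinolates are defence compounds made from methionine. Of 25 tested genes 16 fell and 4 rose. Their activators MYB29 (-1.14 ± 0.20) and MYB28 (-0.55 ± 0.15) fell, as did the chain elongation gene MAM1 (-0.94 ± 0.14) and the core gene CYP83A1 (-0.96 ± 0.17) in the authors' deposited table. The 4 that rose act at the end of the route, 3 oxygenases of the side chain led by FMO GS-OX4 (1.43 ± 0.15) and the transporter GTR1 (0.60 ± 0.13). Jasmonate is a wound hormone, and 10 of 19 genes of its synthesis rose while 1 fell. LOX2, a chloroplast lipoxygenase, went from 7356 to 28126 derived counts (1.93 ± 0.13), and AOC2 was at 1.46 ± 0.13. Of 26 output genes 14 rose and 3 fell: the storage proteins VSP2 (2.19 ± 0.34) and VSP1 (0.69 ± 0.18) and the myrosinase-binding MBP1 (3.14 ± 0.16) rose, and the thionin THI2.2 fell (-2.16 ± 0.14) in the authors' deposited table. THI2.1 had a derived WT mean of 0.380 and a value of 8.37 ± 1.20.

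Some of the largest fold changes belonged to genes of mitochondrial stress and detoxification. When plant mitochondria are impaired, membrane-bound NAC factors enter the nucleus and bind the mitochondrial dysfunction element, whose core reads CTTG, any 5 bases and CANG. Windows of 3 genes are shown because they hold this core, in capitals, upstream of transcripts that rose. AT2G04050, a MATE efflux gene, has chr2:1339469-1339768, minus strand. CRF6 (AT3G61630), a cytokinin response factor, has chr3:22804698-22804997, plus strand. NDB2 (AT4G05020), an alternative NAD(P)H dehydrogenase of mitochondria, has chr4:2572127-2572426, plus strand.
AT2G04050: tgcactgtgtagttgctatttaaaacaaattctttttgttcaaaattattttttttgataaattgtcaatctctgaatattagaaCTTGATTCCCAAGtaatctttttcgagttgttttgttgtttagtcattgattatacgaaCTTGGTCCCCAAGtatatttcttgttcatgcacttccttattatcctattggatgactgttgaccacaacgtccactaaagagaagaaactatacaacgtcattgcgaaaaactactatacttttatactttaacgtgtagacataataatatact
CRF6: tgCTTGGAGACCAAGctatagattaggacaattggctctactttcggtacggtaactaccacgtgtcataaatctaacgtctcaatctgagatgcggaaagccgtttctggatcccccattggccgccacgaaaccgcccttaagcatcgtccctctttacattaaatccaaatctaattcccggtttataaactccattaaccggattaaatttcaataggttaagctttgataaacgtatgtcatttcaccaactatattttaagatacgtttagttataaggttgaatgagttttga
NDB2: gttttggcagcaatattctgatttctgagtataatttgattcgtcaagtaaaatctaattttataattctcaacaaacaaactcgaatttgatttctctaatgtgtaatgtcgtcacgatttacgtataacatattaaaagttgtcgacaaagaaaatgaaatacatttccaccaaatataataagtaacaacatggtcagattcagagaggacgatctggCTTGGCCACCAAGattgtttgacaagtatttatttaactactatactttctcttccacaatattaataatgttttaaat
AT2G04050 holds 2 matches and the others 1 each. Over all windows the core was in 1.64%, against 2.79% of the genes called higher, 5.49% of those at least 2-fold higher and 0.221% (1 of 452) of those at least 2-fold lower.

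AT2G04050 rose from 16.6 to 1813 derived counts, with 6.77 ± 0.54 and an adjusted p of 8.29e-34 in the authors' deposited table. MATE proteins export organic compounds, and 20 of the 41 tested genes rose while 5 fell. AT2G04070 had the largest value of the family, 8.19 ± 0.70, from a derived WT mean of 1.72, and DTX1 (AT2G04040) was at 2.89 ± 0.28. Other members of the same array on chromosome 2 differed from these: AT2G04080 was at 0.68 ± 0.17, AT2G04090 at 0.02 ± 0.24 and AT2G04100 at 0.20 ± 0.15, the last 2 not called. Of 15 mitochondrial stress genes 12 rose and none fell. The median was 0.96, and 7 of the 15 windows hold the core. NDB4 rose by 6.65 ± 0.61 from a derived WT mean of 2.39, the glycosyltransferase gene UGT74E2 by 2.47 ± 0.18, BCS1 by 2.33 ± 0.18, CRF6 by 1.21 ± 0.11, NDB2 by 0.96 ± 0.10 and AOX1A, the alternative oxidase, by 0.80 ± 0.08 in the authors' deposited table. Of 106 UDP-glycosyltransferase genes 41 rose and 14 fell.

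CC-type glutaredoxins are a plant family that binds TGA factors. Of 17 tested, 13 fell and 1 rose, with a median of -1.36; the list was chosen after its values were seen. AT5G18600 fell from 989 to 155 derived counts (-2.68 ± 0.17), AT4G15660 was at -2.69 ± 0.40, and AT4G33040 rose (1.35 ± 0.24) in the authors' deposited table. Several of the lower genes form an array on chromosome 4 and may share reads. DNA damage genes rose in 10 of 21 cases and fell in 1. PARP3, a poly(ADP-ribose) polymerase, went from 17.2 to 287 derived counts (4.07 ± 0.28), GMI1, a gene induced by DNA breaks, was at 2.79 ± 0.16 and the cell cycle inhibitor SMR5 at 1.56 ± 0.30, while BRCA1 (0.16 ± 0.16) and SOG1 (-0.12 ± 0.10), the regulator of the response, were not called. Of 18 tested early stress factors, 1 rose and 1 fell. Some factor genes had wide SEs, such as WRKY33 (0.23 ± 1.12) and WRKY53 (0.68 ± 1.05), and WRKY40 (0.20 ± 1.70) had no p-value. For genes with such a spread, a missing call does not show that the level was unchanged.

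Most genes of the iron regulator list rose, and genes of uptake and storage went both ways. The Ib helix-loop-helix factors bHLH38, bHLH39, BHLH100 and BHLH101 switch on iron uptake, and all 4 rose, at 2.90 ± 0.22, 2.31 ± 0.18, 3.13 ± 0.19 and 1.40 ± 0.41 in the authors' deposited table. BTS, a ligase that restrains the response, rose too (1.08 ± 0.11). In all, 8 of the 14 genes of the regulator list rose and 2 fell. The 8 include the transporter genes NRAMP4 (1.11 ± 0.12) and OPT3 (0.82 ± 0.13), and NRAMP4 is also counted in the next list. Of the uptake and storage genes, 20 of 49 fell and 11 rose. The root importer IRT1 (-1.26 ± 0.25), the reductase FRO2 (-1.37 ± 0.23), the coumarin enzyme gene CYP82C4 (-2.53 ± 0.32) and the vacuolar transporter gene VTL5 (-2.09 ± 0.11) fell. Relatives of these went the other way: IRT2 (1.03 ± 0.20) and the reductase FRO3 (0.82 ± 0.16) rose. For nicotianamine synthase, which makes a metal carrier, NAS4 rose (0.67 ± 0.17), while NAS1 (-0.67 ± 0.15), NAS2 (-1.09 ± 0.19) and NAS3 (-1.16 ± 0.15) fell in the authors' deposited table. IRT3, a transporter of zinc and iron, went from 64.0 to 1263 derived counts (4.30 ± 0.18, adjusted p = 4.12e-121). Among ferritins, which store iron, FER2 rose (2.21 ± 0.22), FER4 fell (-0.87 ± 0.15) and FER1 was not called (-0.24 ± 0.16) in the authors' deposited table.

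Other nutrients showed mixed changes. Of 57 nitrogen genes, 18 fell and 13 rose, and with equal group totals the counts were 14 and 14. The nitrate reductase genes NIA1 (-1.01 ± 0.33) and NIA2 (-0.85 ± 0.19), the transporter NPF1.2 (-1.88 ± 0.11) and the nitrate-induced repressor HRS1 (AT1G13300, -1.71 ± 0.15) fell, whereas NPF3.1, which carries nitrate and gibberellin, rose (2.02 ± 0.10) in the authors' deposited table. Sulfate genes rose in 15 of 37 cases and fell in 3. ATSDI1, a marker of sulfur deficiency, was at 1.34 ± 0.18, SULTR1;3 in the phloem at 1.56 ± 0.14 and the root importer SULTR1;2 at -0.80 ± 0.08. Phosphate starvation genes were higher in 10 and lower in 11 of 27 cases: the starvation-induced RNA IPS1 fell (-1.44 ± 0.22) and PHO2, which restrains uptake, rose (1.07 ± 0.09) in the authors' deposited table.

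Clock genes differed by their time of day. Of 13 morning genes, 12 fell and none rose, with LNK2 (-1.77 ± 0.13), LNK3 (-1.66 ± 0.18), PRR7 (-1.29 ± 0.18), CCA1 (-0.95 ± 0.10) and LHY (-0.66 ± 0.11) as examples from the authors' deposited table. Of 11 evening genes, none fell and 4 rose, with TOC1 at 0.43 ± 0.13 and GI not called (0.02 ± 0.13). The labels give no sampling hour for these seedlings, and a shift in phase cannot be told apart from a change in level at 1 time point. Light signalling genes fell in 18 of 37 cases and rose in 6. The growth-promoting factors PIF4 (-1.11 ± 0.14) and PIF5 (-1.35 ± 0.11) and the shade gene HFR1 (-1.41 ± 0.19) fell, PIF3 rose (0.88 ± 0.11), and HY5, which opposes PIFs, was not called (0.09 ± 0.10) in the authors' deposited table. B-box and GATA factor genes fell in 18 of 49 cases and rose in 4 (13 lower and 8 higher with equal group totals), led by COL5, which fell from 4300.2 to 1207 derived counts (-1.83 ± 0.08, adjusted p = 3.22e-125).

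Markers of cell types gave a varied picture. Leaf and root markers were both detected, as whole seedlings would give, and none of the 6 pollen markers is in the table. Root hair genes rose in 23 of 37 cases and fell in 2, with a median of 0.52. RSL4, the factor that sets hair length, was at 0.90 ± 0.22, and the wall proteins PRP3 and PRP1 at 0.96 ± 0.16 and 1.27 ± 0.16 in the authors' deposited table. All 6 root hair markers rose, and their derived means summed to 7672 in WT and 13357 in 6x_pfd. They include RSL4, PRP3 and EXPA7, already named above, so this count is not independent of the gene lists. GL2, which suppresses hair fate and promotes trichomes, fell (-0.39 ± 0.10). Of 5 trichome markers 4 fell and GIS rose (1.87 ± 0.38), and of 8 guard cell markers 4 fell and 1 rose. None of 7 endodermis or 5 xylem markers was called by the DESeq2 test, and none had an unadjusted p below 0.05. Their derived means summed to 5087 and 8145 in WT against 4749 and 8505 in 6x_pfd. Of 17 suberin and Casparian strip genes 4 rose, not far from the 16.9% higher over all tested genes, with ASFT, a suberin acyltransferase, at 0.92 ± 0.12. What the change of these markers adds to the gene lists was not tested.

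Short upstream motifs were counted in all 19292 windows, as a description with no test. The ABRE core ACGTG was in 36.4% of genes called higher and 25.8% of those called lower, against 26.8% of all. Its share was larger at high fold changes, from 18.5% of genes more than 4-fold lower (10 of 54) to 66.0% of those at least 8-fold higher (105 of 159). The LEA list had it in 34 of 53 windows. Lists in which most members fell could hold it as well, as in 9 of 15 tubulin and 11 of 21 antenna windows, and the clock list, with 13 lower and 4 higher genes, had it in 16 of 25. The longer G-box CACGTG, which contains the core, was in 12.8% of higher and 7.48% of lower genes, against 8.27%. The drought element CCGAC was in 17.0% and 12.6%, against 15.0%. The site II element TGGGCC, common before genes of ribosomes and cell division, was in 17.5% of all windows, in 11.4% of genes at least 2-fold higher and in 7.30% of those at least 2-fold lower.

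**Figure D4:**
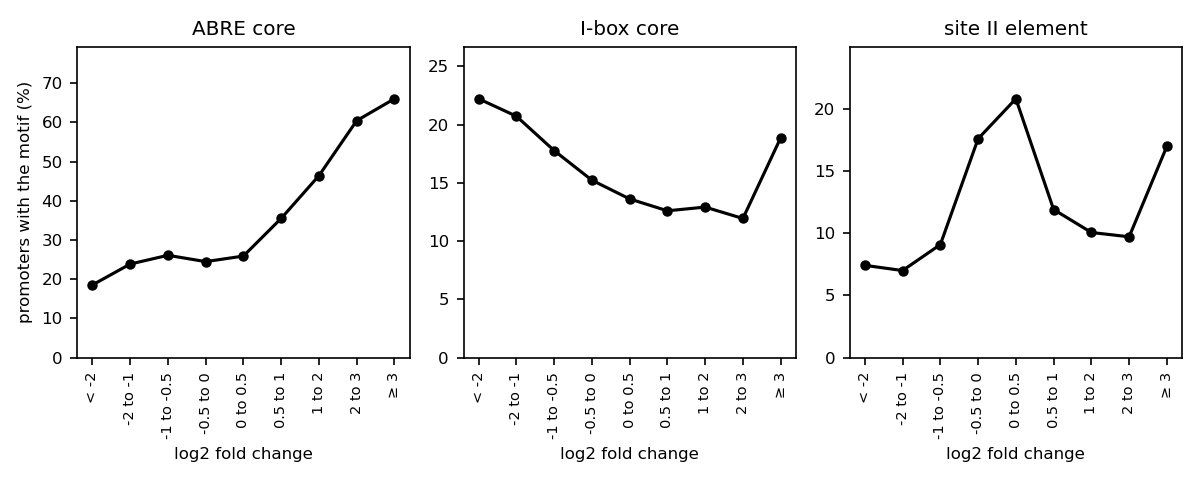
Percent of upstream windows (300 bases) that hold the ABRE core, the I-box core or the site II element on either strand, by log2 fold change of 6x_pfd over WT. The ABRE share climbs to 66.0% in the highest class, the I-box share is 22.2% in the lowest class and 18.9% in the highest, and the site II share is highest, 20.8%, from 0 to 0.5; each panel has its own axis.

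Finally, the 6x_pfd changes were set against those of pfd4 at 14 days, where PFD4 alone of the prefoldin genes was lower and 1423 of 18363 tested genes (7.75%) were called, 3.94% higher and 3.81% lower. The comparisons share no library. Genotype, age and light regime differ together between them and cannot be told apart. The log2 fold changes were set against each other gene by gene in a Wald test, two-sided and with Benjamini-Hochberg adjustment over the 18035 genes in both tables, which called 4299 genes (23.8%). Of 731 genes called in both, 274 moved the same way, 129 higher and 145 lower, which is 4.66% of the 5883 genes of both tables that were called in 6x_pfd and 19.8% of the 1385 called in pfd4. The other 457 moved in opposite directions, 225 of them higher in 6x_pfd, which is 7.77% and 33.0% of the same 5883 and 1385 calls. All 457 passed the test of the difference, which adds little, because they were picked for called changes of opposite sign.

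Of 21 antenna genes, 17 fell in 6x_pfd and 11 rose in pfd4, and the difference was called for 18. LHCA4 was at -1.68 ± 0.13 in 6x_pfd and 0.32 ± 0.07 in pfd4 (adjusted p of the difference = 1.77e-36). PSAD-2 was at 0.51 ± 0.09 in pfd4 against -1.51 ± 0.08 in 6x_pfd (1.20e-60), and COL5 at 0.46 ± 0.12 against -1.83 ± 0.08 (1.80e-57), values of the authors' deposited tables. Of the 8 cytosolic HSP70 and HSP90 genes, 7 rose in 6x_pfd and 7 fell in pfd4, with HSP70 at -0.87 ± 0.15 there (5.91e-27 for the difference). The 2 pairs also differed in level, with a mean normalized count of HSP70 of 3623 at 7 days and 38370 at 14 days, each pair scaled on its own. Ribosome assembly genes rose in 13 of 17 cases in 6x_pfd and fell in 6 in pfd4, and 16 differences were called. The iron factor gene BHLH100 was at -1.66 ± 0.59 in pfd4, where the DESeq2 test did not call it (adjusted p = 0.057). Its difference from 6x_pfd was called (7.78e-13). The stress gene RD29A was at 2.57 ± 0.15 in 6x_pfd and -0.57 ± 0.17 in pfd4 (7.61e-42 for the difference). Of 39 LEA genes in both tables, 30 rose in 6x_pfd, none rose and 4 fell in pfd4, and 27 differences were called, all towards 6x_pfd.

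Other families had members that moved the same way in both. Tubulin genes fell in both, 14 of 15 in 6x_pfd and 8 in pfd4, and all 8 called in both had the same direction. The difference was called for 8 of the 15, and for 6 of those the value was lower in 6x_pfd, as in TUB8 (-0.97 ± 0.08 against -0.05 ± 0.11). Cuticle and wax genes had 12 members lower in both. Late anthocyanin genes had 6 called in both, each in the same direction, with DFR at 1.79 ± 0.22 in pfd4 and the difference called (0.0038). LOX2 was at 1.93 ± 0.13 and 1.92 ± 0.29 (95% interval of the difference from -0.61 to 0.64). AT3G28220, a TRAF-like gene, was at 2.19 ± 0.12 and 2.54 ± 0.16, and MBP1 at 3.14 ± 0.16 and 4.21 ± 0.21 in the authors' deposited tables. For MBP1 the test of the difference gave a call (adjusted p = 0.000678), with the larger rise in pfd4. The DNA replication list differed in its calls, with 15 of 34 lower in pfd4 and 1 in 6x_pfd, and the difference was called for 9.

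**Figure D5:**
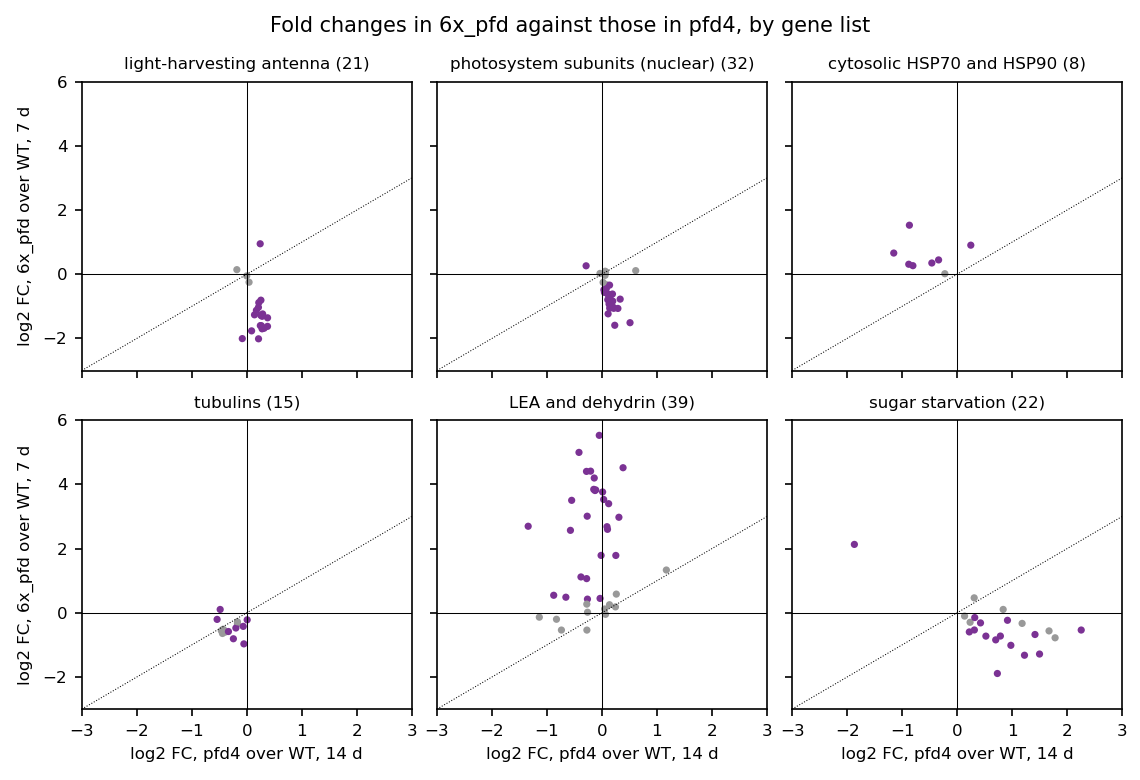
Log2 fold change in 6x_pfd (vertical, 7 days) against that in pfd4 (horizontal, 14 days), each over its own WT, for the members of 6 lists found in both tables, with their number in brackets. Purple points passed the test of the difference (adjusted p below 0.05), grey ones did not, and the dotted line marks equal changes; most antenna points lie below it and most LEA points above.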

How the data were processed

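Per the submitters' processing notes, reads were handled with cutadapt, HISAT2, HTSeq and DESeq2 on the TAIR10 build; versions and settings are not given in the sources used here. The deposited tables hold a mean normalized count (a signal per gene), a log2 fold change with its standard error, a Wald score and p-values for each comparison, made by the authors and limited to genes above a minimum expression. They hold no count or depth per library. Gene names came from a RefSeq table (TAIR10.1), which matched 19310 of the 19397 identifiers; the other 87 are organelle genes. Group means were derived from the mean normalized count and the fold change, assuming 3 libraries a group. The members and gene lists were chosen with earlier results of these data known, and some genes of a list were named for their role after their values were seen. Otherwise the text names the prefoldin genes and their called neighbours, the called members of a list with the smallest p or the largest change, its most abundant uncalled members, the 10 genes with the largest changes, smallest p or highest means in each direction, and the clearest cases against pfd4. Alternatives covered thresholds, a 25% change as the null, 2 centrings and 2 filters. Scripts were tested on simulated data and used Python 3.11.15, numpy 2.4.6, pandas 2.3.3, scipy 1.17.1 and matplotlib 3.10.9.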

Additional observations from a re-analysis of the deposited data

Results flagged for a closer look

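The log2 fold changes of 6x_pfd at 7 days and pfd4 at 14 days differed, by a test of the difference itself, for 4299 genes, and 457 of these were called in opposite directions. The mutants also differ in age and light regime, so genotype cannot be told apart from these. AT3G01345, an uncharacterized gene, had the largest difference, 11.46 on the log2 scale (6x_pfd minus pfd4): it was at 3.45 ± 0.48 in 6x_pfd and -8.01 ± 0.25 in pfd4, with a derived WT mean at 7 days of 5.57 normalized counts. EGY3, a chloroplast protease-like gene of heat responses, differed by 3.45, the RING protein gene AT1G24580 by 3.75 and the drought gene RD29A by 3.14. AT4G32920, a glycine-rich protein gene, differed by 1.71. In the other direction PSAD-2 differed by -2.02, the chloroplast reductase gene FRO6 by -2.003 (-1.52 ± 0.09 and 0.49 ± 0.08), COL5 by -2.30, AT1G51400, a small photosystem II protein gene, by -1.71 and the uncharacterized AT1G21500 by -2.06.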

How the results depend on the processing

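No paired analysis was possible because the deposited tables hold no values per library, and for the same reason leaving out a replicate was not run. Calls of at least 2-fold numbered 734 higher and 452 lower genes, and a test against a change of 25% gave 1069 and 887, against 3270 and 3249. Lists of described families with at least 50% of their tested members called in 1 direction numbered 30, but 7 at 2-fold and 13 with the test against 25%. The share of upstream windows with ACGTG went from 36.4% to 53.9% for higher genes and from 25.8% to 23.0% for lower genes when only calls of at least 2-fold were taken. Over 868 counts for lists under 7 alternatives, 666 stayed within 1.5 times of the reported count and 202 did not, most of them under the 2-fold threshold (87) and the test against 25% (75). Of 1577 values of single named genes under these alternatives, 1477 kept their direction and side of the threshold, 100 missed the threshold and none reversed. Only the 2 centrings could change a sign, and their shifts were small (0.01 and -0.08 on the log2 scale). The lack of reversals therefore says little about direction. The difference from pfd4 was called for 4299 genes, for 2879 at an adjusted p below 0.01 and for 4015 at mean counts of at least 100 in both tables. Depth per library is unknown, so fold changes of genes with derived WT means under 10 are the least certain.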

Other observations

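Among genes not described above, the thionin gene AT1G66100 fell from 2726 to 377 derived counts (-2.85 ± 0.14 in the authors' deposited table), and the calcineurin-B-interacting kinase gene CIPK20 (-2.31 ± 0.24) and AIR1, an auxin-induced root gene (-2.14 ± 0.22), also fell. Lipid transfer protein gene LTP4 rose from 42.4 to 1506 derived counts (5.15 ± 0.53), and the thiazole synthase gene THI1 rose from 73372 to 104383 (0.51 ± 0.10). The caleosin gene RD20, which marks ABA and drought responses, was at 2.65 ± 0.12.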
